A study of Mus musculus with 3 samples.

Results

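Tenomodulin is encoded by Tnmd, 1 of the 22072 gene symbols listed in RNA sequencing of ScxGFP-positive cells from embryonic mouse hindlimbs. The gene was chosen by its name, as the row labelled Tnmd in each of the 3 libraries, and was set against Scx, Mkx and Col1a1 in the same libraries. The embryos, of mixed strain background, were collected at E11.5 (18 hindlimbs), E13.5 (12) and E15.5 (11), where E stands for the embryonic day. The GFP-positive fraction of each stage was pooled, sorted, frozen and made into 1 library per stage. ScxGFP is a reporter for the tendon transcription factor gene Scx, and every library holds only GFP-positive cells, so no GFP-negative cells serve as a control. With 1 library per stage, no difference has a replicate check and none was tested.

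Tenomodulin is a membrane glycoprotein of tendon and ligament cells. It spans the membrane once, with its C terminus outside the cell, and carries a BRICHOS domain followed by a cysteine-rich domain that resembles the cartilage protein chondromodulin and can inhibit blood vessel growth. In tendon development its gene is known as a late marker: Scx is active in progenitors before Tnmd, both Scx and the homeobox factor Mohawk (Mkx) are known to promote Tnmd expression, and type I collagen, whose main chain is encoded by Col1a1, is the bulk of the tendon fibre.

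The single Tnmd row in each library was transcript NM_022322, 1325 bases long, on the X chromosome (chrX:130385547-130400116, mm9). In the GENCODE M21 annotation, which is on another build (GRCm38), the gene has 1 transcript with 7 exons that encodes 317 amino acids, and no other gene overlaps it, so reads on it are not shared with an overlapping gene in that annotation. The sequence just before the gene is shown because Scx is a basic helix-loop-helix factor, a class that binds the E-box motif CANNTG. It is the RefSeq promoter sequence for GRCm38.p6, plus strand, chrX:133850758-133850979, 222 bases that end where the GENCODE transcript starts.

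Tnmd promoter: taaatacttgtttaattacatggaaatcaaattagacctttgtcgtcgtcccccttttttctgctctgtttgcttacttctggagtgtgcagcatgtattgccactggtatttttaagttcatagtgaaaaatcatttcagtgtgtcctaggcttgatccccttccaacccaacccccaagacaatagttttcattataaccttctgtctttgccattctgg

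No letter is in capitals because CANNTG, which reads the same on both strands, had 0 matches in this window. Windows of the same length and offset held at least 1 match in 62.4% of the 32851 RefSeq promoters. The absence covers these 222 bases only and says nothing about binding of Scx elsewhere.

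Tnmd was listed at 0 in the E11.5 library, had a level of 7.57 FPKM at E13.5 and reached 56.8 FPKM at E15.5. FPKM is the number of fragments on a transcript, scaled to its length in kilobases and to the mapped fragments of the library. The estimate had the status OK in all 3 libraries, and the deposited coverage, the mean read depth over the transcript, was 0, 9.999 and 89.8 in stage order. Within each library coverage was a nearly fixed multiple of FPKM (1.61, 1.32 and 1.58 in stage order), so it is no second measurement. By these values the gene was first seen at E13.5, and no stage between E11.5 and E13.5 was sampled. By an estimate of 41.5 bases per read, about 319 reads fell on Tnmd at E13.5 and about 2866 at E15.5. The approximate 95% Poisson intervals, which cover counting error only, ran from 6.76 to 8.44 FPKM for E13.5 and from 54.8 to 59.0 for E15.5, and did not overlap.

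The value of 0 at E11.5 is set here beside the depth of its library, and why Tnmd was at 0 was not tested. By the same estimate, about 14269300, 12632600 and 17732400 reads in stage order fell on the listed transcripts. By counting error alone, a count of 0 reads allows up to 3 reads, which is 0.0583 FPKM for a transcript of this length at E11.5. This limit does not cover noise from the amplification of cDNA before sequencing. Among 1228 genes with a single transcript within 10% of the length of Tnmd, 354 were listed at 0 at E11.5 and 29 stood near the value of 1 read. At E13.5 and E15.5, 325 and 313 of them were listed at 0, and 59 and 48 stood near 1 read. E11.5 thus had the most at 0 and the fewest near 1 read. None of the 14 housekeeping genes measured was at 0 in any library. Their lowest value at E11.5 was 5.15 FPKM (Hprt), far above 0.0583 FPKM, so they do not bear on levels near that limit. In sorted pools, fewer cells that make a transcript and less of it per cell cannot be told apart, so the level of Tnmd is that of the population.

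**Figure D1:**
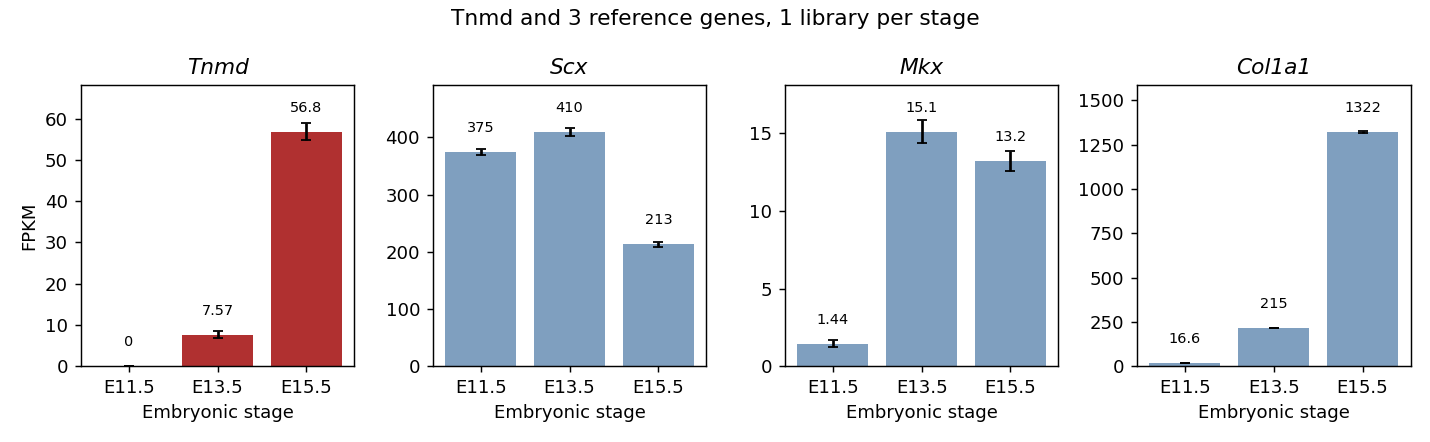
FPKM of Tnmd (red) and the reference genes Scx, Mkx and Col1a1 (blue) at each stage, 1 library per bar, each panel with its own axis from 0. Error bars are approximate 95% Poisson intervals of counting error only. Tnmd stands at 0, 7.57 and 56.8 FPKM, whereas Scx is lowest at E15.5 and Mkx changes little after E13.5.

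The place of Tnmd among all genes moved accordingly. At E13.5 it ranked 4130 of 22072 genes, within the top 37.6% of the 10971 genes that reached 1 FPKM. At E15.5 it ranked 417, within the top 3.75% of the 11132 genes that reached 1 FPKM. Col1a1, by comparison, ranked 1585, 83 and 3 in stage order.

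Scx, the gene behind the sort, was abundant before Tnmd was detected. In stage order Scx had 375 FPKM (interval 369 to 380), 410 (403 to 416) and 213 (209 to 218), so its lowest level stood beside the highest level of Tnmd. Mkx had 1.44, 15.1 and 13.2 FPKM. Most of the difference in Mkx lay between E11.5 and E13.5, where its FPKM ratio was 10.4 (interval 8.95 to 12.2), and the ratio from E13.5 to E15.5 was 0.876 (0.817 to 0.940). Col1a1 had 16.6, 215 and 1322 FPKM, with no overlap of the counting intervals. Unlike Tnmd, all 3 reference genes were above 1 FPKM at E11.5.

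Ratios within a library do not depend on how libraries are scaled. For every 1000 FPKM of Scx there were 0, 18.5 and 267 FPKM of Tnmd in stage order. The ratio to Scx was thus 14.4 times higher at E15.5 than at E13.5 (interval 12.8 to 16.3). For every 1000 FPKM of Mkx there were 502 FPKM of Tnmd at E13.5 and 4301 at E15.5, a ratio 8.57 times higher (7.49 to 9.81). Tnmd was below Mkx at E13.5 and above it at E15.5. For every 1000 FPKM of Col1a1 there were 35.1 FPKM of Tnmd at E13.5 and 43.0 at E15.5, a ratio 1.22 times higher (1.09 to 1.37). Over this step Tnmd therefore kept closer to the collagen gene than to either regulator, although Col1a1 was already at 16.6 FPKM when Tnmd was listed at 0. These intervals cover counting error only.

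From E13.5 to E15.5 the FPKM of Tnmd differed 7.51-fold (6.69 to 8.43). On the log2(FPKM + 1) scale, which understates changes of low genes, the difference was 2.76, with a counting standard error of 0.08. Of 10934 genes compared over this step, 3.58% were at least 2-fold higher and 0.713% at least 2-fold lower, and the median difference was 0.04. Tnmd had the 14th largest increase among them. Col1a1 differed by 2.61, Mkx by -0.18 and Scx by -0.94 on the same scale. Of the genes past 2-fold, 83.4% were higher. When the libraries were brought to 1 common FPKM sum, that share was 67.4%, the median of all genes was -0.13, Scx was at -1.14 and so past 2-fold lower, and Tnmd was at 2.56.

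**Figure D2:**
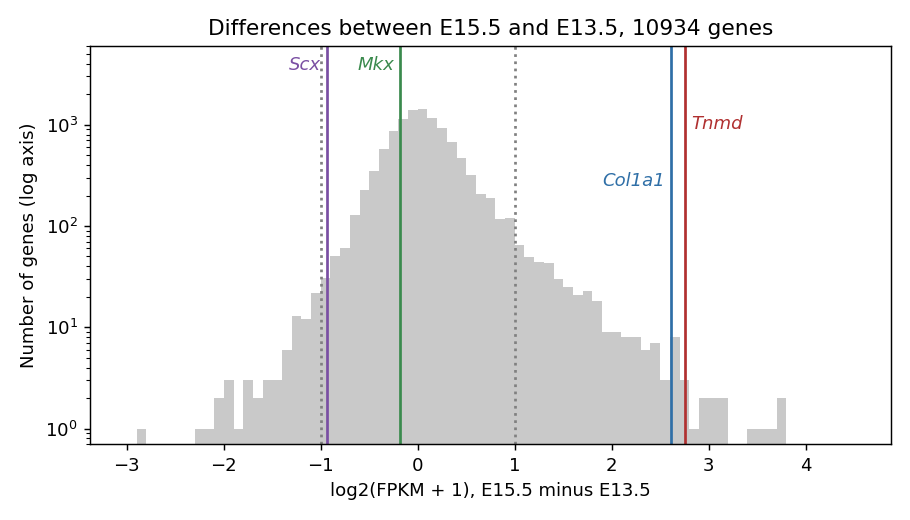
Number of genes (log axis) by difference in log2(FPKM + 1) between E15.5 and E13.5, for 10934 genes, with dotted lines at 2-fold. Tnmd (2.76) and Col1a1 (2.61) lie near the upper end, Mkx (-0.18) near the middle and Scx (-0.94) close to 2-fold lower.

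No fold is given for Tnmd against E11.5, since the value there was 0. In its place, the other genes with the same starting point were counted. At E11.5, 5438 genes with the status OK in all libraries were listed at 0, and 15 of them (0.276%) reached at least 1 FPKM at both later stages. Of these 15, 9 were microRNA or small nucleolar RNA genes, whose short rows make FPKM values coarse. The other 6 were Tnmd, 1500015O10Rik, Anxa1, Ifi27l1, 3110079O15Rik and Npy. Tnmd had the highest FPKM at E15.5 of all 5438. Next was 1500015O10Rik, also named Ecrg4, at 1.77 FPKM at E13.5 and 34.7 FPKM by E15.5. The small nucleolar RNA gene Snord58b followed, at 20.3 and 27.6. Anxa1, which encodes the membrane-binding protein annexin A1, stood at 3.72 and 14.8 FPKM, and 3110079O15Rik, now named Snorc, a cartilage proteoglycan gene, at 1.06 and 5.31. Npy, which encodes neuropeptide Y, stood at 1.04 and 1.19 FPKM. Tnmd also had the highest FPKM at E15.5 among the 7342 genes at or below 0.0583 FPKM at E11.5. That set includes the 5438 listed at 0, so its ranking is not independent of theirs. The limit is the level that 3 reads would give for Tnmd, and it means other read numbers at other lengths.

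**Figure D3:**
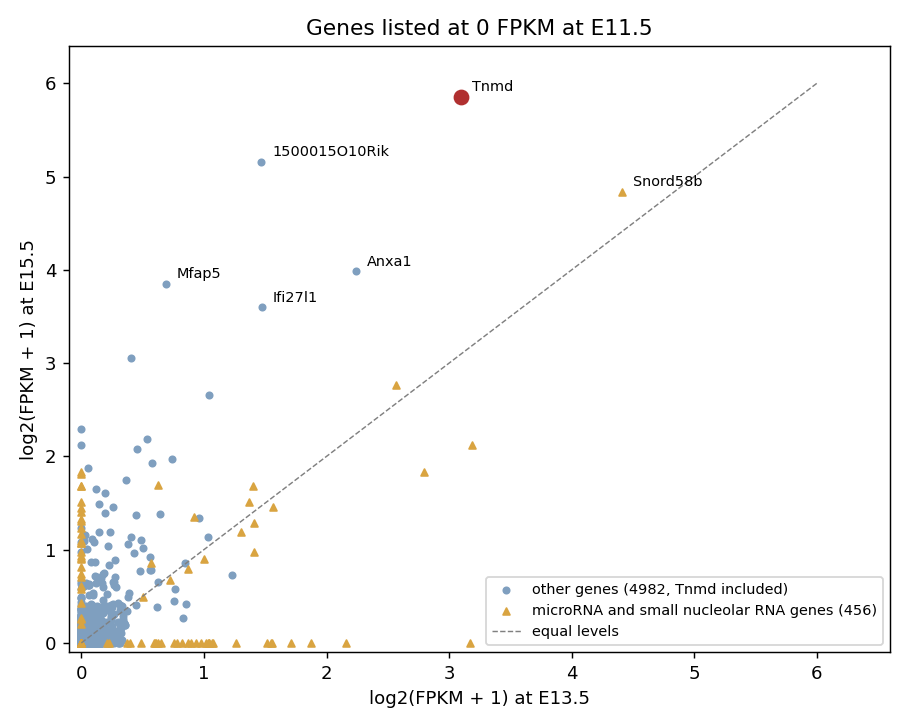
log2(FPKM + 1) at E13.5 (horizontal) and at E15.5 (vertical) for the 5438 genes listed at 0 FPKM at E11.5, 1 point per gene, with microRNA and small nucleolar RNA genes as triangles. Tnmd lies at the top of the plot, above 1500015O10Rik and Snord58b.

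Other genes with a BRICHOS domain were compared with Tnmd, 8 of them on the list used. Lect1, which encodes chondromodulin, the closest relative of tenomodulin and a product of cartilage, had 2.78, 15.4 and 27.5 FPKM in stage order. It was present before Tnmd, higher than Tnmd at E13.5 and lower at E15.5. The membrane protein gene Itm2a stood at 49.8, 82.6 and 306 FPKM in stage order. Its relatives Itm2b, at 14.3, 34.1 and 54.4 FPKM, and Itm2c, at 12.9, 23.7 and 32.5 FPKM, were also present at every stage. The surfactant protein gene Sftpc was at 0.0277 FPKM at E11.5 and listed at 0 later, and the gastrokine genes Gkn1, Gkn2 and Gkn3 were listed at 0 throughout. Of the 4 relatives that averaged at least 1 FPKM, 2 passed 2-fold upward between E11.5 and E13.5 and 0 downward (median 1.01 on the log2(FPKM + 1) scale, against 0.07 for all genes). Over the same step 6% of 10938 genes passed upward and 1.02% downward. From E13.5 to E15.5, Itm2a alone of the 4 passed 2-fold upward (1.88) and 0 passed downward (median 0.73, against 0.04 for all genes), where 3.58% of all genes passed upward and 0.713% downward. The steps share the E13.5 library, so they are not independent. Tnmd was the sole member of the list to go from a value of 0 to a measured level.

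Most tendon matrix genes were also higher at each later stage, though all 29 measured were above 0 at E11.5. Of 28 compared, 27 passed 2-fold upward from E11.5 to E13.5 (median 2.56) and 25 from E13.5 to E15.5 (median 2.02, against 0.04 for all genes), and 0 passed downward in either step. Of all genes, 6% and 3.58% passed upward in these steps, and 1.02% and 0.713% downward. The 3 that missed 2-fold over the later step were the microfibril gene Fbn2 (0.65), the proteoglycan gene Lum (0.77) and the tenascin gene Tnc (0.94). The increase of Tnmd over the later step, 2.76, was exceeded by 2 of the 28, the fibril-associated collagen gene Col14a1 (3.41) and Fndc1 (3.71). It was close to that of the proteoglycan gene Bgn (2.74). Col14a1, Fndc1 and the matrix genes Comp and Cilp met the minimum mean only through E15.5. The counts of this list that end at E15.5 were therefore favoured by the filter, and the list was chosen with earlier results of these data known. In level, 20 of 29 matrix genes stood above Tnmd at E13.5 and 15 of 29 at E15.5. At E15.5 the nearest in level was the fibrillin gene Fbn1 at 56.0 FPKM, inside the counting interval of Tnmd. From E11.5 to E15.5 all 28 passed 2-fold upward (median 4.57, against 0.07), where 12.6% of 10939 genes were higher and 2.14% lower.

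**Figure D4:**
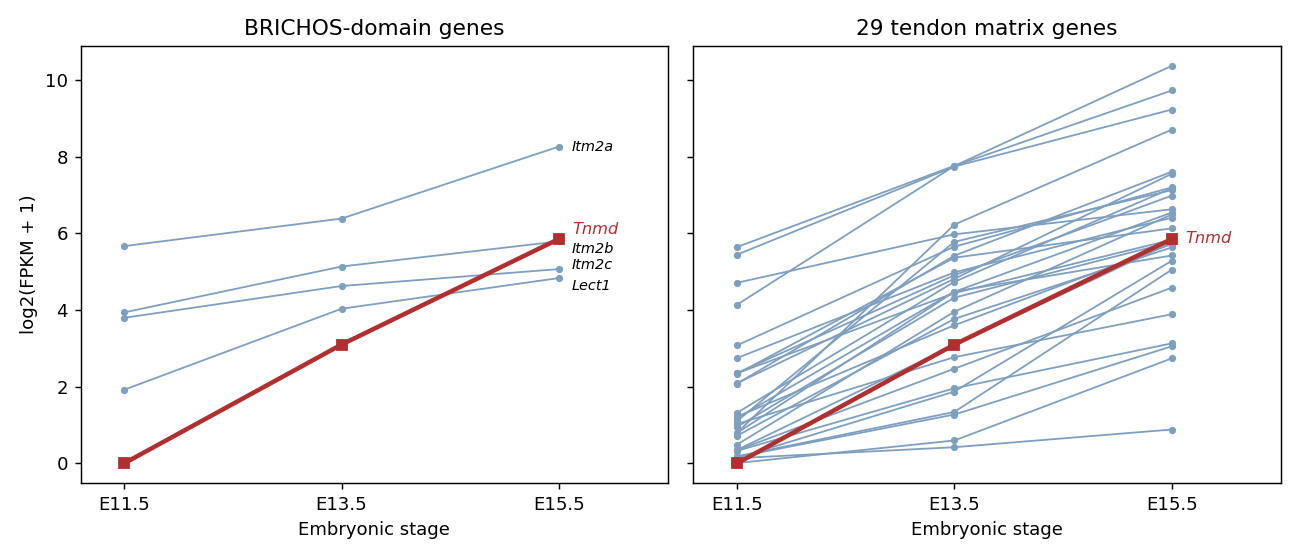
log2(FPKM + 1) by stage for the BRICHOS-domain genes that reached 1 FPKM (left) and for 29 tendon matrix genes (right), blue, with Tnmd in red on both sides. Tnmd starts from 0 below its relatives, crosses Lect1, Itm2b and Itm2c after E13.5, and lies below all 29 matrix genes at E11.5 and among them at both later stages.

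Regulators of tendon formation mostly passed 2-fold, where they did, in the earlier step. Of 20 compared, 8 passed 2-fold upward from E11.5 to E13.5 (median 0.84) and 1 from E13.5 to E15.5 (median -0.08, against 0.04 for all genes), and 0 passed downward in either step. Of all genes, 6% passed upward and 1.02% downward in the earlier step, and 3.58% and 0.713% in the later one. The later upward count and both downward counts of the regulators were thus near the background. With the libraries at 1 common sum, Scx and Gdf5 passed downward over the later step, where 139 of 10934 genes did. With a pseudocount of 0.1 the upward counts were 12 and 3, with 1 downward over the later step. Under that pseudocount 1154 of 10938 genes passed upward over the earlier step, and 584 of 10934 upward and 189 downward over the later one. The gene past 2-fold upward in both steps was Egr1, an immediate-early factor known to act in tendon cells, at 13.8, 87.5 and 298 FPKM in stage order. The E-protein genes Tcf3 and Tcf12, whose products pair with scleraxis on DNA, stayed within 2-fold, at 34.3, 23.5 and 22.7 FPKM and at 32.7, 30.3 and 31.5 FPKM. Mstn, which encodes the growth inhibitor myostatin, stood at 0.176, 0.955 and 2.86 FPKM, and Tgfbr2, a receptor gene for TGF-beta, had 2.13, 12.6 and 23.9 FPKM, so both were highest at E15.5, as Tnmd was. Six2, a homeobox gene, and Tgfb2, a TGF-beta ligand gene, were instead highest at E13.5, at 17.5 and 32.2 FPKM.

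The genes whose values lay nearest to those of Tnmd were ranked by Euclidean distance in log2(FPKM + 1) over the 3 libraries, among 21847 genes with the status OK. The nearest was Htra1, which encodes a secreted serine protease, at 0.110, 6.07 and 52.1 FPKM (distance 0.34). Next came Thbs2, which encodes the matrix protein thrombospondin-2, at 0.275, 7.46 and 53.3 FPKM (0.36), and the beta-globin gene Beta-s, at 0.308, 4.93 and 67.4 FPKM (0.70), whose reads can be shared with near-identical globin copies. The others among the first 10 were Creb3l1, Htra3, Prss35, Lox, Kera, Ptrf and Zcchc5, at distances from 0.84 to 1.16. Lox, which encodes the collagen-crosslinking enzyme lysyl oxidase, stood at 54.6 FPKM at E15.5, and Kera, which encodes the proteoglycan keratocan, at 48.7. All 10 were above 0 at E11.5, from 0.110 to 0.902 FPKM, so none shared the listed 0 of Tnmd. The order depends on the measure: with a pseudocount of 0.1, 6 of the 10 were again among the nearest, and with each gene divided by its highest value, 3 were, namely Htra1, Htra3 and Thbs2. Likeness over 3 libraries is a description and carries no test.

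**Figure D5:**
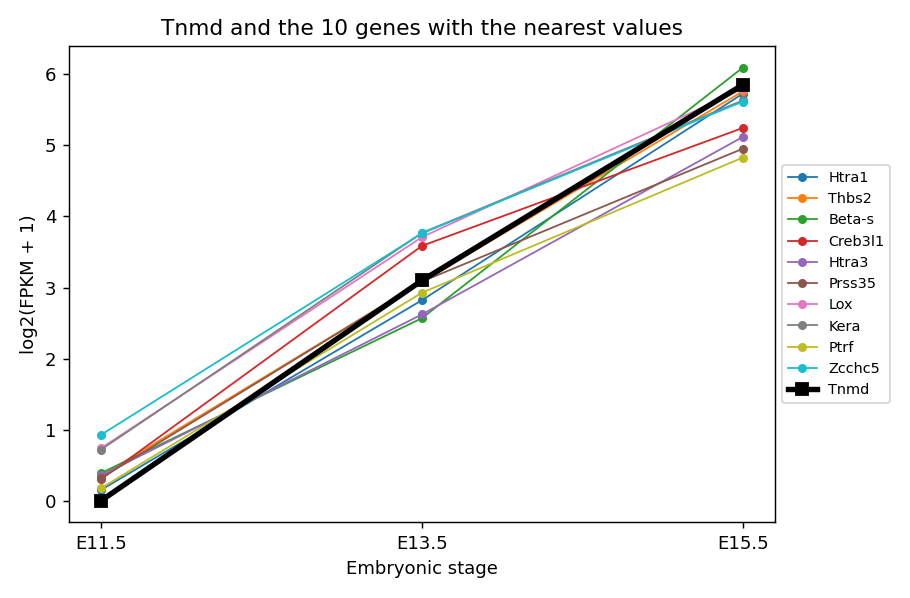
log2(FPKM + 1) by stage for Tnmd (black) and the 10 genes nearest to it by Euclidean distance. The lines of Htra1 and Thbs2 run closest to Tnmd, and every other line starts above the 0 of Tnmd at E11.5.

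None of the 3 nearest genes on either side of Tnmd on the X chromosome reached its level at E15.5. Tspan6, a tetraspanin gene 25.5 kb from it, had 15.2, 15.4 and 19.6 FPKM, above Tnmd at E11.5 and E13.5. Srpx2, 42.8 kb away, stood at 0.00833, 0.412 and 1.59 FPKM, and Sytl4, 70.8 kb away, at 0.355, 0.845 and 0.416. On the other side the protocadherin gene Pcdh19, 162 kb away, stood at 1.09, 4.28 and 4.20 FPKM. Much farther out on that side, Diap2, 3385 kb away, stood at 0.846, 1.60 and 1.77 FPKM. The gene 4921511C20Rik, 6455 kb away, was listed at 0 throughout.

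Markers of other cell types were also present and some were higher with stage. Tnmd is also known from adipose tissue, and 7 of 8 adipocyte genes were below 1 FPKM at every stage. Lep and Cidec were listed at 0 in all libraries, and Adipoq was at most 0.0231 FPKM. Other members were highest at E15.5, as Tnmd was: Pparg had 0, 0.0863 and 0.557 FPKM in stage order, Fabp4 0, 0 and 0.395, and Cebpa 0.0748, 0.513 and 0.566. The sum of the 8 was 2.13, 3.94 and 6.27 FPKM, most of it from Lpl, a lipase gene that other cells also use. The summed level of 15 cartilage genes was 174, 359 and 541 FPKM in stage order, that of 15 skeletal muscle genes 16.4, 80.7 and 252, and that of 9 erythroid genes 10.5, 20.9 and 88.3. Single genes carried much of these sums at E15.5: Col2a1 had 230 FPKM, the actin gene Actc1 164 and Beta-s 67.4. Members also went the other way: the cartilage regulator gene Sox9 had 56.2, 41.0 and 22.5 FPKM in stage order, and the embryonic globin genes Hbb-y and Hba-x were lower at E15.5 (3.41 and 2.88) than at E13.5 (7.43 and 5.13). The 12 endothelial genes summed to 3.22, 6.34 and 20.4 FPKM. Only 4 of them averaged at least 1 FPKM and were compared: Ramp2, Eng, Emcn and Tek, at 6.48, 3.08, 2.87 and 2.63 FPKM at E15.5. All 4 passed 2-fold upward from E13.5 to E15.5, where 3.58% of all genes passed upward and 0.713% downward. Eng, Emcn and Tek were below 1 FPKM at both earlier stages. They met the minimum mean only through E15.5, so the count of 4 was favoured by the filter. Pecam1 and Cdh5, which define endothelium, had 0.504 and 0.917 FPKM at E15.5, and 6 of the 12 were below 1 FPKM at that stage. Leukocyte genes (8) summed to 1.80, 1.001 and 3.14 FPKM with Ptprc at 0 at E11.5, epidermal genes (6) to 1.19, 4.21 and 10.01, and Schwann cell and neuron genes (7) to 3.98, 3.45 and 3.87. Bone genes (7) summed to 5.53, 19.4 and 16.3 FPKM, and fibroblast and dermis genes (9) to 114, 321 and 719, of which Col3a1, also a tendon gene, made up 42.5, 213 and 599. The part of these cell types in the level of Tnmd was not tested.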

How the data were processed

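RNA was sequenced from 3 pools of sorted cells, 1 per stage, and the samples were grouped by the age in the labels. Per the labels' protocols, RNA was isolated with an RNeasy micro kit and amplified as cDNA (NuGEN Ovation RNA-Seq v2), a step whose noise no interval here covers. The authors deposited FPKM and a coverage signal for 28107 RefSeq transcripts, with a status per estimate, per the file headers. Bowtie 0.12.7, TopHat 1.4.1 and mm9 stand in the submitters' processing notes, without roles. For strand and annotation release, the answer is not given in the sources used here.

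FPKM of rows with the same symbol were summed. Comparisons used log2(FPKM + 1), genes averaging at least 1 FPKM with status OK, and a threshold of 2-fold (pandas 2.3.3, numpy 2.4.6). Coverage times length, divided by the 41.5 bases at which low values piled up (39.5 to 45.5 by library, within a window of 30 to 60), gave approximate reads for the 95% intervals. The calls and the read estimate were tested on simulated data. There the reads had 1 mean length and no other values fell inside the window, so the difference between libraries was not covered.

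The genes named in the text are Tnmd, the reference genes, the BRICHOS list, 3 neighbours on each side, the 10 nearest patterns, and members of the regulator and matrix lists that were 2-fold apart. Beyond this rule, genes listed at 0 at E11.5, Fbn1, Fbn2, Lum, Tnc, Tcf3, Tcf12, Mstn, Gdf5, Abca9, Abi3bp, Aqp1, Cd44 and marker examples were picked after their values were seen. The members and lists were chosen with earlier results of these data known. Col6a3 and Hprt1 matched no listed symbol and were not analysed here. Alternatives were another pseudocount, another minimum, rescaling and transcripts taken singly.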

Additional observations from a re-analysis of the deposited data

How the results depend on the processing

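Tnmd stayed listed at 0 at E11.5 under every alternative, since rescaling leaves 0 unchanged. Its level at E15.5 was 52.3 FPKM with libraries rescaled to the mean sum and 54.6 with median-of-ratios size factors, and its log2 difference from E13.5 to E15.5 ranged from 2.56 (rescaled) to 2.89 (pseudocount of 0.1). The counts of genes that serve as background moved more. With a mean of at least 5 FPKM, 381 genes were higher and 43 lower at E13.5 than at E11.5, 214 and 42 at E15.5 than at E13.5, and 712 and 124 at E15.5 than at E11.5. With a pseudocount of 0.1, 1154 were higher and 191 lower over the earlier step, and 189 and 431 were lower over the later step and over both. With each transcript as its own gene, 247, 190 and 356 were lower in the same order. Rescaled, 139 were lower over the later step, where 67.4% of genes past the threshold were higher instead of 83.4%, and 361 over both. With a threshold of 5 FPKM, 2 genes listed at 0 at E11.5 reached it at both later stages, Tnmd and Snord58b. Of the 10 nearest patterns, 6 and 3 were shared under the other measures. Depth limits how low a level can be seen and sets the counting error, and with 1 library per stage no replicate could be left out. No paired analysis was possible because each stage has 1 library.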

Other observations

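Further genes listed at 0 at E11.5 reached 5 FPKM only at E15.5, each chosen after its values were seen. Mfap5, which encodes a microfibril-associated glycoprotein, stood at 0.615 FPKM at E13.5 and 13.4 at E15.5. Ifi27l1 stood at 1.77 and 11.1 FPKM, and Ndufa4l2, which encodes a mitochondrial protein, at 0.324 and 7.33. In all, 63 of the 5438 genes listed at 0 at E11.5 reached 1 FPKM at E15.5, 9 reached 5 FPKM and 6 reached 10 FPKM.

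With each gene divided by its highest value, among genes that reached 10 FPKM, the nearest to Tnmd was Abca9, a lipid transporter gene, at 0.0849, 1.62 and 12.0 FPKM in stage order. Abi3bp, a matrix protein gene, stood at 0.156, 2.59 and 19.3 FPKM, Aqp1, a water channel gene, at 0.0574, 2.48 and 17.1, and Cd44, the hyaluronan receptor gene, at 0.331, 2.99 and 22.7. The FPKM ratios of these named genes from E13.5 to E15.5 lay between 6.88 and 7.59, beside 7.51 for Tnmd. Among the 10 nearest by this measure the ratios ran from 6.55 (Htra3) to 8.58 (Htra1). Like ratios follow from how these genes were ranked and are no separate result.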
